A study of Mus musculus with 5 samples.

Results

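The receptor of leukaemia inhibitory factor (LIF), the transcription factor STAT3 and the Pim kinases were followed as 10 genes in mouse embryonic stem cells that lacked or carried Mkl2. The genes were Lifr, Il6st, Osmr, Jak1, Stat3, Socs3, Bcl3, Pim1, Pim2 and Pim3. They were chosen by symbol, as the array features whose annotation gives exactly 1 symbol, with the brightest feature kept for each gene. All 10 were measured, among 19938 genes in all, and 9 lay above the background level of 7.30 defined below. The Mkl2-/- group held 3 arrays and the wild-type group 2, each array from its own culture of undifferentiated C57BL/6 embryonic stem cells. Cells of both genotypes grew in serum with LIF on gelatin and mouse embryonic fibroblast feeders, and most feeders were left behind when they stuck to the dish. Each value is a log2 expression level, and each difference is Mkl2-/- minus wild type. The sources used here do not say how many cell lines stand behind the cultures, so p-values measure only the spread between cultures.

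LIF keeps mouse embryonic stem cells undifferentiated in culture. It joins the LIF receptor (Lifr) to the signal-transducing chain gp130 (Il6st), which brings Janus kinases such as JAK1 together. The kinases phosphorylate STAT3, which enters the nucleus and switches on genes, among them Socs3, whose protein shuts the receptor down again. The Pim genes encode serine/threonine kinases that promote survival and growth and are known targets of STAT proteins.

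The start regions of 3 of these genes are shown because they encode the factor itself, its feedback inhibitor and the member with the largest difference. Each runs 5′ to 3′ on the gene's own strand, from 250 bases before to 50 bases after the RefSeq start, on GRCm38.p6. Stat3 is on the minus strand at chr11:100939491-100939790, Socs3 on the minus strand at chr11:117969317-117969616 and Pim2 on the plus strand at chrX:7878056-7878355. Capitals mark a match to the STAT motif TTCNNNGAA, which reads the same on both strands.
Stat3 promoter: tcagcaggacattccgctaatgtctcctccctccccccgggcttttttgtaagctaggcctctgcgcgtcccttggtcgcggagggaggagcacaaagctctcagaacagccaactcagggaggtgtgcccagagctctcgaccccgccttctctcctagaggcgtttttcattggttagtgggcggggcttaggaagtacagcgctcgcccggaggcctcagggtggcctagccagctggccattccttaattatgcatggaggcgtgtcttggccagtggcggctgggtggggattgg
Socs3 promoter: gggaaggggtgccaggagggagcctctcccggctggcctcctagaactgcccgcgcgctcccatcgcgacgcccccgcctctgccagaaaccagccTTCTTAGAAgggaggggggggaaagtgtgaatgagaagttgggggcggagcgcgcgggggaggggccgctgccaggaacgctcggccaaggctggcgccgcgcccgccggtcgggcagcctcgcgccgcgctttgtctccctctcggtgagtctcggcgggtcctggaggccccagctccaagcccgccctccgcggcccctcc
Pim2 promoter: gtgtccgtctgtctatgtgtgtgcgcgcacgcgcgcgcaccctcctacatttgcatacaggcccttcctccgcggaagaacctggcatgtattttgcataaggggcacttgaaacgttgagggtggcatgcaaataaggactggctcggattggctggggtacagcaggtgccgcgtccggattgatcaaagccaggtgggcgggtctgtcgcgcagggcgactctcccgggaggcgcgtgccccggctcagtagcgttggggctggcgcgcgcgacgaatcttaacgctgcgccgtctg
The motif was searched in the 12 RefSeq start windows of all 10 genes, and 1 window, that of Socs3, held it, 154 bases before the start. Of all 32851 mouse windows of this length, 8.3% held it. The stricter form TTCCNGGAA, each match of which is also a match of TTCNNNGAA, was in 0 of the 12 windows and in 1.15% of all windows. The CArG box, the site of serum response factor, with which the Mkl2 protein works, was in 0 of the 12 windows and in 1.63% of all windows. A match of letters is a description and not a binding site, and other parts of these genes were not searched.

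Of the 10 genes, 4 were lower in Mkl2-/- cells in limma's test, whose Benjamini-Hochberg adjustment covered all 19938 genes (threshold 0.05), and none was higher. They were the receptor chain gene Il6st, Stat3, Pim1 and Pim2, with falls of 1.28-fold to 1.83-fold. The other 6 did not pass. Over all genes 6.28% were lower and 2.99% higher by the same rule, and over the 13564 genes above background 8.78% were lower and 4.15% higher. The median difference of the 10 was -0.11, against 0.02 over all genes and 0.01 over those above background. At an unadjusted p under 0.05, 7 of the 10 passed, against 23.0% of all genes and 30.8% of genes above background. In the same 7 the arrays of both groups did not overlap, against 33.6% of all genes and 43.0% of genes above background.

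**Figure D1:**
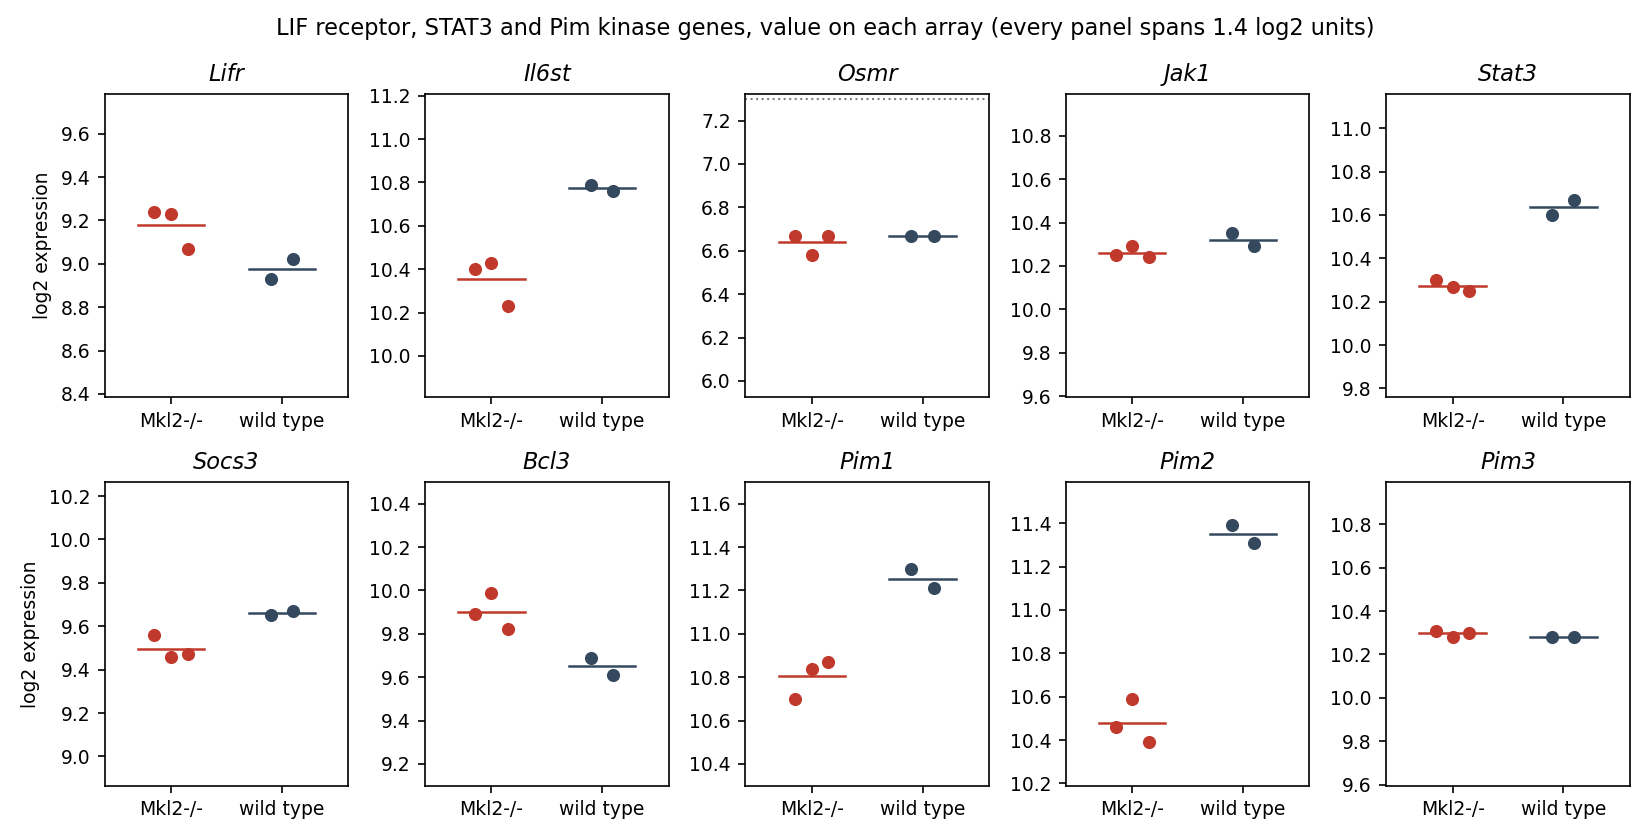
Log2 expression of the 10 genes on each array (points), with group means (lines); Mkl2-/- stands left of wild type, every panel spans the same height, and the dotted line is the background level of 7.30. The groups lie apart in Il6st, Stat3, Pim1, Pim2 and Socs3 with Mkl2-/- lower, and in Lifr and Bcl3 with Mkl2-/- higher. Osmr lies below background on all 5 arrays.

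At the receptor, both chains of the LIF receptor were measured and their differences had opposite signs. Il6st, on chromosome 13, read 10.40, 10.43 and 10.23 in Mkl2-/- and 10.79 and 10.76 in wild type. Each Mkl2-/- array lay below both wild-type arrays, and the third was the lowest. The mean was 10.35 ± 0.11 in Mkl2-/- and 10.78 ± 0.02 in wild type (SD, n = 3 and 2). Its difference was -0.42 ± 0.07 (SE; 1.34-fold lower), and its limma adjusted p of 0.04995 lay just inside the threshold. Lifr, on chromosome 15, read 9.24, 9.23 and 9.07 in Mkl2-/- and 8.93 and 9.02 in wild type. All Mkl2-/- arrays were above both wild-type arrays, the third by the least. The Lifr difference of 0.21 ± 0.07 did not pass (limma adjusted p = 0.2005, 95% interval 0.01 to 0.40, not adjusted for the number of genes).

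Osmr, which encodes the gp130 partner in the oncostatin M receptor, was at background in both genotypes. It read 6.67, 6.58 and 6.67 in Mkl2-/- and 6.67 on both wild-type arrays, all under 7.30, so no fold is given. The background level is the 95th percentile of the mean levels of 1027 olfactory receptor genes, which stem cells are taken not to express.

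Inside the cell, Stat3 was lower and Jak1 did not pass. Stat3, on chromosome 11, read 10.30, 10.27 and 10.25 in Mkl2-/- and 10.60 and 10.67 in wild type. The 3 Mkl2-/- arrays lay within 0.05 of each other and well below both wild-type arrays. The means were 10.27 ± 0.03 in Mkl2-/- and 10.64 ± 0.05 in wild type (SD, n = 3 and 2), a difference of -0.36 ± 0.03 (SE; 1.28-fold lower, limma adjusted p = 0.0131). Jak1, on chromosome 4, encodes the main Janus kinase of gp130. It read 10.25, 10.29 and 10.24 in Mkl2-/- and 10.35 and 10.29 in wild type, so the groups met at 10.29. The Jak1 difference was -0.06 ± 0.03 (limma adjusted p = 0.332, 95% interval -0.14 to 0.02).

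The feedback inhibitor and the nuclear cofactor, both known targets of STAT3, did not pass the test. Socs3, on chromosome 11, read 9.56, 9.46 and 9.47 in Mkl2-/- and 9.65 and 9.67 in wild type. Every Mkl2-/- array was below both wild-type arrays, the first by only 0.09. The Socs3 difference was -0.16 ± 0.04 (limma adjusted p = 0.0927, 95% interval -0.27 to -0.06). A dimmer second Socs3 feature read 7.72, 7.83 and 7.88 in Mkl2-/- and 7.82 and 7.68 in wild type, with overlapping groups and the opposite sign (0.06 ± 0.07). The 2 Socs3 features therefore disagree in direction, and neither passed. With other processing the brighter feature passed as lower, narrowly, after cyclic loess (adjusted p = 0.0449) and among genes above the median gene (0.0491); over all alternatives its adjusted p ran up to 0.370. Bcl3, on chromosome 7, encodes an IκB family protein that acts in the nucleus. It read 9.89, 9.99 and 9.82 in Mkl2-/- and 9.69 and 9.61 in wild type. All Mkl2-/- arrays lay above both wild-type arrays, yet the difference of 0.25 ± 0.06 did not pass (limma adjusted p = 0.108, 95% interval 0.07 to 0.43). Bcl3 and Lifr passed as higher when the arrays were quantile normalized again (adjusted p = 0.0180 and 0.0254). Over all alternatives the adjusted p ran up to 0.358 for Bcl3 and 0.4345 for Lifr.

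Of the 3 Pim kinase genes, Pim1 and Pim2 were lower and Pim3 did not pass. Pim2, on the X chromosome, read 10.46, 10.59 and 10.39 in Mkl2-/- and 11.39 and 11.31 in wild type. The gap between the groups was far wider than the spread within either. The means were 10.48 ± 0.10 in Mkl2-/- and 11.35 ± 0.06 in wild type (SD, n = 3 and 2), a difference of -0.87 ± 0.07 (SE; 1.83-fold lower, limma adjusted p = 0.0133). Pim1, on chromosome 17, read 10.70, 10.84 and 10.87 in Mkl2-/- and 11.30 and 11.21 in wild type. Its Mkl2-/- arrays were all below its wild-type arrays, the first being the lowest. The Pim1 difference was -0.45 ± 0.07 (SE; 1.37-fold lower, limma adjusted p = 0.0377). Pim3, on chromosome 15, read 10.31, 10.28 and 10.30 in Mkl2-/- and 10.28 on both wild-type arrays. The groups met at 10.28, and the Pim3 difference of 0.02 ± 0.01 did not pass (limma adjusted p = 0.464). The 95% intervals were -1.07 to -0.67 for Pim2, -0.64 to -0.26 for Pim1 and -0.02 to 0.06 for Pim3. Neither of the first 2 met that of Pim3, and the difference between the kinases was not tested.

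**Figure D2:**
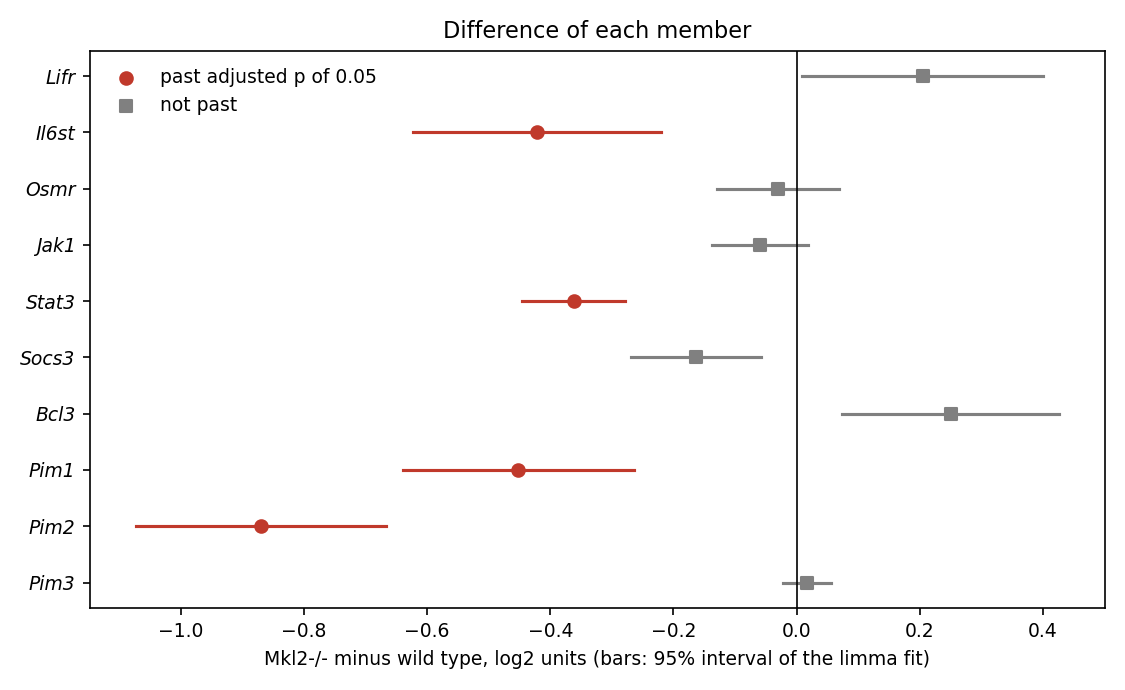
Difference of each gene in log2 units, Mkl2-/- minus wild type, with the 95% interval of the limma fit (n = 3 and 2); red circles passed the adjusted p of 0.05 and grey squares did not. The differences run from -0.87 for Pim2 to 0.25 for Bcl3.

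No call among the 10 held under each omission of 1 array, while the size of the differences moved little. Stat3 passed only without wild-type replicate 1 (limma adjusted p = 0.0433, up to 0.0725 over the 5 omissions), Pim2 only without Mkl2-/- replicate 2 (0.0408, up to 0.083) and Il6st only without Mkl2-/- replicate 3 (0.0421, up to 0.197). Pim1 passed in none (0.072 to 0.140). Without wild-type replicate 2 limma called 0 genes in the whole table, where 4411 had an unadjusted p under 0.05, so every call on a gene given here was lost in that fit. Across the omissions the Pim2 difference ran from -0.93 to -0.83, Pim1 from -0.50 to -0.40, Il6st from -0.46 to -0.36 and Stat3 from -0.40 to -0.33. In all 5 fits the direction stayed the same for 9 of the 10 genes, and Osmr was at 0.00 without Mkl2-/- replicate 2.

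**Figure D3:**
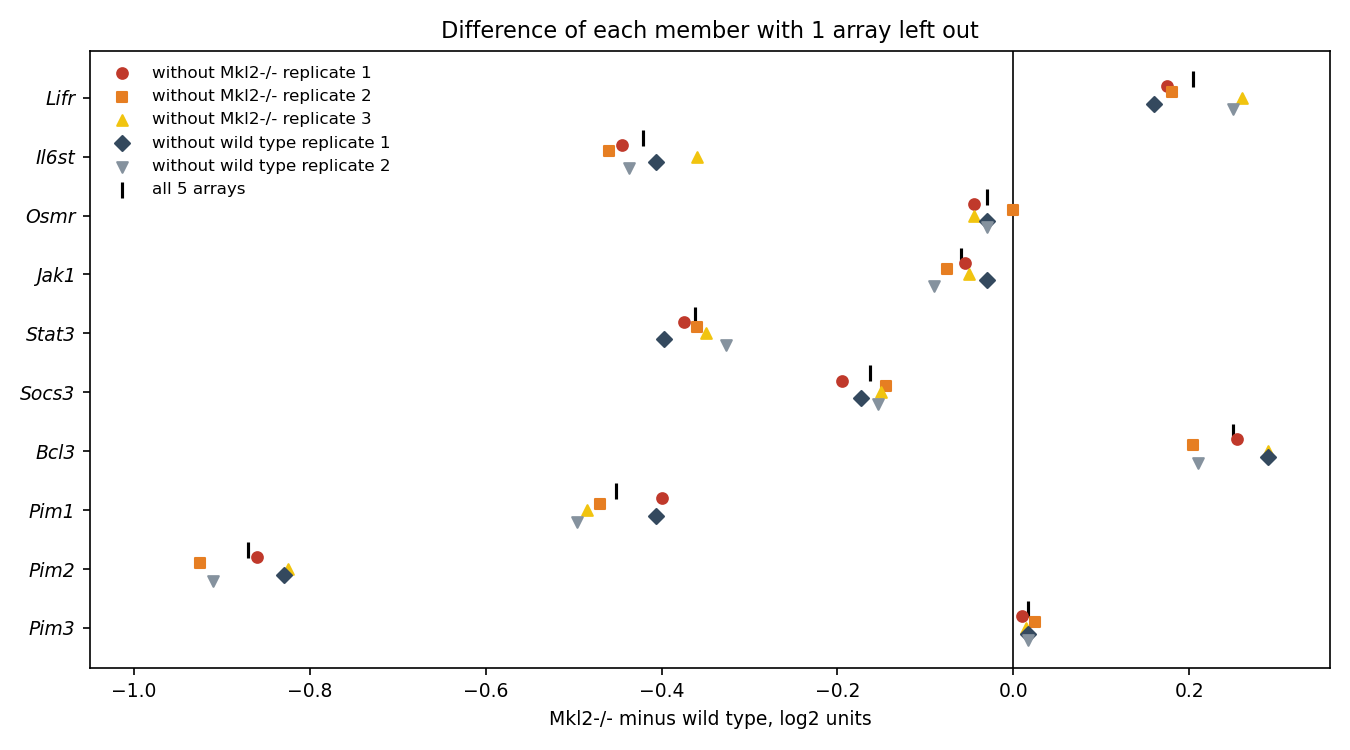
Difference of each gene in log2 units with each of the 5 arrays left out in turn (coloured symbols) and with all arrays (black bars). Il6st, Stat3, Socs3, Pim1 and Pim2 stay below 0 and Lifr and Bcl3 above it in every fit.

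The chromosomal surroundings of the lower members did not share their shift. The median difference of genes above background on chromosome 1 was -0.17, and parts of other chromosomes also differ as a whole, so the 12 genes above background on either side of each gene were examined. Their median difference was -0.02 around Pim2, 0.03 around Pim1, -0.05 around Il6st and 0.01 around Stat3. Of each set of 24 neighbours, 2 or 3 passed the test in either direction, where 12.9% of genes above background and 9.27% of all genes did.

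The genes whose pattern over the 5 arrays came closest to each lower member were found by the root mean square distance of mean-centred log2 values among genes above background. Notch2, Mogs and As3mt were closest to Il6st, at distances of 0.012 to 0.023. Tgfb1i1, Gigyf2 and Sh3bp1 were closest to Stat3 (0.012 to 0.013), and Card10, Tex261 and Cx3cl1 to Pim1 (0.023 to 0.030). For Pim2 they were Tpra1, Fstl1 and Atp1b2 (0.026 to 0.039). Over 5 arrays in 2 groups, such likeness mostly reflects a similar difference between the genotypes.

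The receptors of related cytokines included 2 further falls. Cntfr, which encodes the ciliary neurotrophic factor receptor that works through LIFR and gp130, read 10.76, 10.83 and 10.77 in Mkl2-/- and 11.18 and 11.16 in wild type. Its groups lay apart, with a difference of -0.38 ± 0.03 (limma adjusted p = 0.0108). Il6ra, the interleukin-6 receptor gene, differed by -0.27 ± 0.03 (limma adjusted p = 0.0285). These were the 2 of 11 measured ligands and receptors that passed, both lower, and the list's median difference was 0.02. By the same test 6.28% of all genes and 8.78% of those above background were lower. The Lif gene itself, at 7.64 to 7.68 on all arrays, lay just above background and did not pass (0.02 ± 0.02). Ctf2 (0.12) and Il27ra (0.14) had the next smallest p-values and did not pass. With 1 array left out, Cntfr passed only without Mkl2-/- replicate 2 and Il6ra only without Mkl2-/- replicate 3 (adjusted p up to 0.0791 and 0.146 over the 5 fits).

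Of 7 other Janus kinase and STAT genes, 3 were lower, none was higher and 4 did not pass. Among genes above background 8.78% were lower, and among all genes 6.28%. The median difference of the list was -0.18. Stat4 read 8.44, 8.66 and 8.43 in Mkl2-/- and 9.36 and 9.55 in wild type. Its difference was -0.95 ± 0.11 (limma adjusted p = 0.0220), but it lies on chromosome 1, where its 24 neighbours had a median of -0.34 and 9 of them passed the test. Stat2, which carries interferon signals, differed by -0.46 ± 0.05 (limma adjusted p = 0.0212) and Stat6, which carries interleukin-4 signals, by -0.18 ± 0.01 (limma adjusted p = 0.0091). Around Stat2 and Stat6 the neighbours' medians were 0.05 and 0.00. Jak2 differed by -0.43 ± 0.11 without passing (limma adjusted p = 0.109), but passed as lower in 3 of 16 alternatives (0.0248 to 0.360). With single arrays left out, Stat6 passed in 4 of 5 fits, and Stat2 and Stat4 in none of the 5 (adjusted p from 0.0536 and from 0.0569).

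None of 16 JAK-STAT inhibitor genes passed limma's adjusted threshold in the deposited values, and their median difference was 0.00. The smallest p-values were those of Socs2 (0.18 ± 0.03), Pias1 (-0.14 ± 0.03), Ptpn6 (0.125 ± 0.03) and Socs7 (-0.13 ± 0.04), which had unadjusted p-values of 0.0055, 0.0149, 0.0153 and 0.0411. These were the 4 of 16 with an unadjusted p under 0.05, a share near the 23.0% of all genes and below the 30.8% of genes above background. Socs2 came nearest, with an adjusted p of 0.0551, and its call depended on the processing. It passed as higher in 8 of 16 alternatives, among them both normalizations and both filters on low genes (adjusted p from 0.0247 to 0.202 over all 16).

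The other arm of the receptor, which runs through RAS, ERK and PI3 kinase, held 1 clear change. Gab1, which encodes a docking protein for the phosphatase SHP2 and PI3 kinase, read 11.74, 11.70 and 11.72 in Mkl2-/- and 10.83 and 10.89 in wild type. All Mkl2-/- arrays were higher, and the difference was 0.86 ± 0.03 (1.82-fold, limma adjusted p = 0.0054). None of the other 14 measured genes of this list passed, and the list's median was -0.08. By the same test 2.99% of all genes and 4.15% of genes above background were higher. Akt1 (0.15 ± 0.03, adjusted p = 0.0525), Braf (0.12 ± 0.03) and Pik3ca (0.08 ± 0.02) followed by p-value. Akt1 passed as higher in 6 of 16 alternatives (adjusted p from 0.0268 to 0.213), so the list then held 2 rises. Gab1 passed in 4 of the 5 fits with an array left out, all but that without wild-type replicate 2.

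Genes known as LIF and STAT3 targets in mouse embryonic stem cells moved in both directions. Of 24, 7 were lower (29.2%), 2 higher (8.33%) and 15 did not pass, and the median difference was -0.05. Over all genes 6.28% were lower and 2.99% higher, and over genes above background 8.78% and 4.15%. Irf1, an interferon response factor gene, read 9.30, 9.30 and 9.24 in Mkl2-/- and 10.08 and 10.15 in wild type (-0.84 ± 0.03, limma adjusted p = 0.0062). Klf4, a pluripotency factor gene, read 10.02, 10.06 and 9.98 in Mkl2-/- and 10.73 and 10.69 in wild type (-0.69 ± 0.03, limma adjusted p = 0.0067). In both genes the groups lay far apart, but the 24 neighbours of Klf4 on chromosome 4 had a median of -0.36, against -0.05 around Irf1. Tfcp2l1, which encodes a STAT3 target that can sustain self-renewal, fell by 0.67 on the log2 scale, and its neighbours on chromosome 1 had a median of -0.20. Ccnd1 (-0.32), Zfp36 (-0.44), Zfp36l1 (-0.48) and Fos (-1.01) also fell; Fos is a serum response factor target as well.

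The targets that rose were Ceacam1 and Klf5. Ceacam1, a cell adhesion gene, read 8.57, 8.50 and 8.50 in Mkl2-/- and 7.56 and 7.63 in wild type, a difference of 0.93 ± 0.04 (limma adjusted p = 0.0062). Klf5, a relative of Klf4 that is also induced by LIF, differed by 0.28 ± 0.03 (limma adjusted p = 0.0152). Junb (-0.16), Myc (0.22), Sbno2 (-0.05), Gbx2 (-0.14) and Esrrb (-0.02) did not pass. Mcl1 (0.105, limma adjusted p = 0.0553) and Sgk1 (-0.255, limma adjusted p = 0.0605) came nearest without passing. Over 16 alternatives Sgk1 passed in 6, and Mcl1 and Mycn in 2 each. Myc passed as higher in 1, that without Mkl2-/- replicate 1 (limma adjusted p = 0.04395). Pramel7 lay below background on all 5 arrays. The 7 falls became 3 or 4 when any 1 Mkl2-/- array was left out, and Klf5, Zfp36 and Zfp36l1 passed in none of these fits. Leaving out a wild-type array leaves only 1 in that group, so no count is given here for those fits. The same limit applies to every call in this report that comes from a fit without a wild-type array.

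**Figure D4:**
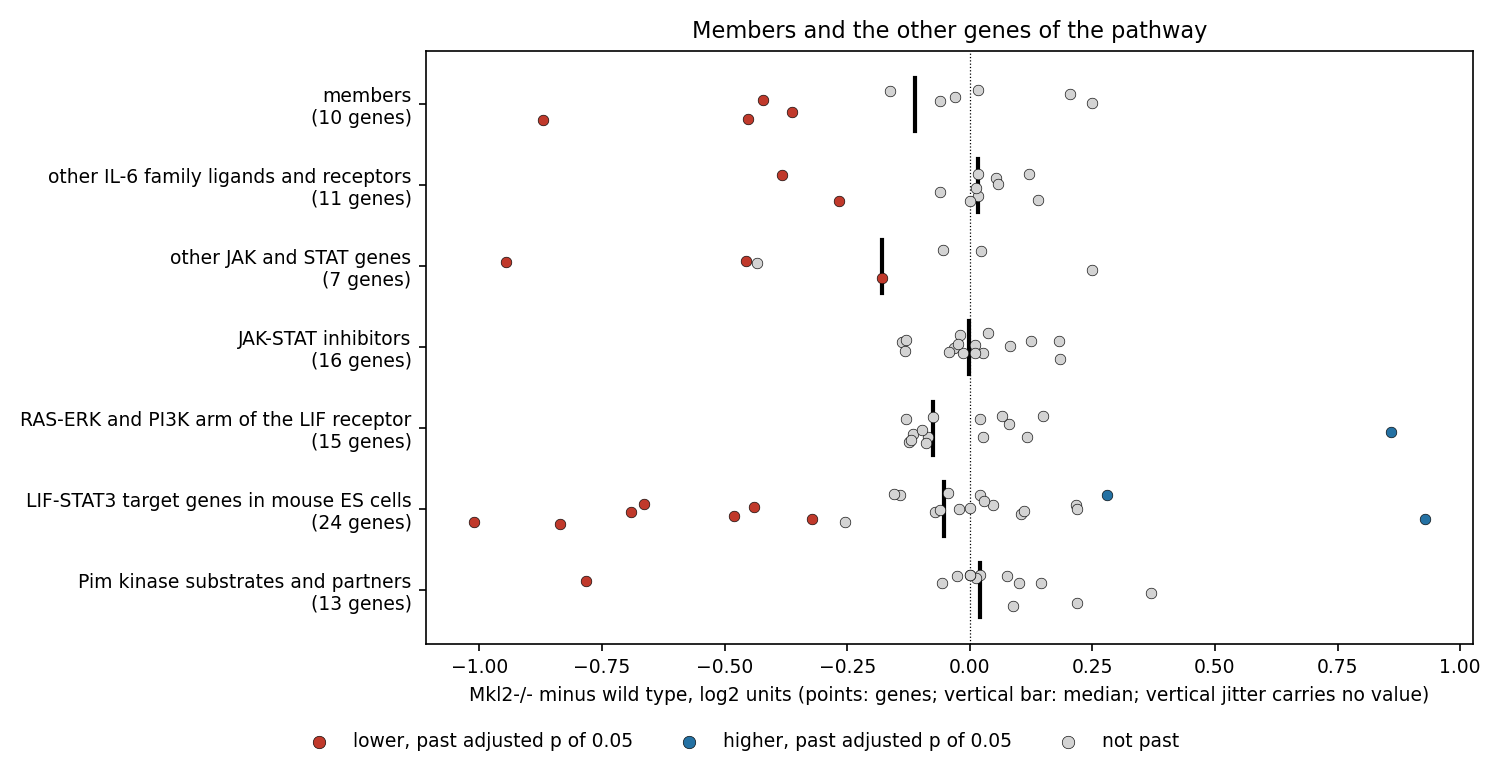
Differences in log2 units, Mkl2-/- minus wild type, of the 10 genes (top row) and of 6 lists of related genes; each point is a gene, black bars are medians, and colour shows the limma call. In the deposited values the 16 inhibitor genes hold no call, and the targets hold 7 falls and 2 rises.

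Among 13 substrates and partners of the Pim kinases, only Sox9 passed (-0.78 ± 0.04, limma adjusted p = 0.0079). The median of the list was 0.02. In either direction 9.27% of all genes and 12.9% of genes above background passed. Foxo3 (0.37 ± 0.08, adjusted p = 0.0825), Foxo1 (-0.06 ± 0.02) and Cdkn1b (0.145 ± 0.06) had the next smallest p-values and did not pass, and Bad and Eif4ebp1, substrates in survival and translation, differed by 0.09 and 0.01. Sox9 passed in 1 of the 5 fits with an array left out, that without wild-type replicate 1 (adjusted p 0.0379 to 0.0583 over the 5). Foxo3 passed as higher in 4 of 16 alternatives (adjusted p from 0.0121 to 0.275).

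The arrays were checked against their labels and for other cells. Mkl2, which the annotation calls Mrtfb, read 9.32, 9.32 and 9.09 in Mkl2-/- and 9.80 and 9.75 in wild type (-0.53 ± 0.09, limma adjusted p = 0.0480). Its other 2 features differed by -0.83 ± 0.07 and -0.98 ± 0.11, with all Mkl2-/- arrays below both wild-type arrays; no source used here says whether its features lie in the deleted part. Embryonic stem cell markers averaged 11.51 to 11.57 in Mkl2-/- and 11.47 to 11.48 in wild type, and all 12 lay above background on every array. Of these, Pou5f1 (0.03) and Sox2 (0.07) did not pass, Nanog was lower (-1.14) and 4 were higher. For this and the next marker lists, the shares over all genes were 6.28% lower and 2.99% higher. Over genes above background they were 8.78% and 4.15%. Markers of fibroblasts averaged 8.30 to 8.34 in Mkl2-/- and 8.44 to 8.45 in wild type, with 4 of 19 lower and 1 higher. Of them Fstl1, named above for its likeness to Pim2, was lower by the test (-0.88), as were Mmp2, Pdgfrb and Sparc. Twist1 was higher (0.31). Col1a1 did not pass (-0.29, limma adjusted p = 0.0901), and Lum and Postn were below background on all arrays. Markers of primitive endoderm, a cell type that can arise in such cultures, averaged 8.99 to 9.15 in Mkl2-/- and 8.51 to 8.58 in wild type. Of the 15, 6 were higher, among them Cubn (2.87) and Lama1 (1.45), and 1 was lower, Lrp2 (-0.57). The part of these other cells in the falls of Il6st, Stat3, Pim1 and Pim2 was not tested. In bulk RNA of this kind, fewer cells that express a gene and less RNA per cell cannot be told apart.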

How the data were processed

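RNA from 5 cultures was measured on Affymetrix whole-transcript arrays. The deposited values are log2 intensities that the authors made by the RMA method; the program was Expression Console 1.1 of Affymetrix, per the submitters' processing notes. This method subtracts background, equalizes the arrays and summarizes probes, which compresses differences of dim genes; the values are rounded to 2 decimals. No source used here gives scan dates, batches or the annotation build. A platform annotation gave 1 symbol to 21789 of 35556 features, several to 1621 and none to 12146; the brightest feature per gene by mean over all arrays left 19938 genes. By Entrez gene identifier, 21698 of the features with 1 symbol matched RefSeq of GRCm38.p6, used for chromosomes and gene order. Gene names are those of the platform annotation. Promoter sequences are RefSeq's on GRCm38.p6, and all 10 genes had one. No column of per-sample values was left unused (0).

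The genotypes were tested in limma 3.58.1 (R 4.3.3; functions lmFit and eBayes), with 3 residual and 0.885 prior degrees of freedom, two-sided, adjusted by Benjamini-Hochberg over all genes. There were 776 genes without spread within groups, 766 of them with 1 value on all 5 arrays. With these 776 left out, the prior was 2.28 degrees of freedom. Array medians ran from 7.94 to 7.98, and the number of arrays limits the precision. No pair of arrays was identical: 15.5% to 27.5% of gene values were equal (within 0.001). Wild-type replicate 1 shared 27.5% with Mkl2-/- replicate 1 and 26.5% with Mkl2-/- replicate 2. Those 2 Mkl2-/- arrays shared 26.4%, and the 2 wild-type arrays 19.4%. The cause of these shares was not tested.

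The 10 genes, the lists and the tests were chosen with earlier results of these data known. Named are the 10 genes, Mkl2, up to 4 genes per list with the smallest p and the 3 genes most like each lower member; other genes were named after their values were seen. Of listed genes without a feature of 1 symbol, none was analysed here (3 ligands or receptors, 2 of the JAK and STAT list, 5 of the RAS arm, 1 Pim partner and 1 fibroblast marker). Alternatives were 2 normalizations, 2 filters, 3 variance or weighting models, 2 ways to treat features, a replicate block, each array left out and, added after seeing the data, genes with spread only. Figures were drawn with matplotlib 3.10.9.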

Additional observations from a re-analysis of the deposited data

How the results depend on the processing

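The 4 members lower in Mkl2-/- cells also passed under quantile normalization, cyclic loess, array weights, averaged features per gene, a robust variance trend, either filter on low genes and the genes with spread only (the last chosen after seeing the data); Socs3 joined them under cyclic loess and among genes above the median gene. Only 2 passed when all 35556 features were adjusted together (Stat3 and Pim2) and 0 without moderation (6 members at an unadjusted p under 0.05), where the count over all genes was 228 lower and 70 higher, 2 targets were lower and 1 higher. With each array left out, members lower ran from 0 to 1 (4 to 6 members at an unadjusted p under 0.05), targets lower from 0 to 4 and targets higher from 0 to 2, and all genes lower from 0 to 490 and higher from 0 to 473. The 1252 genes lower and 596 higher became 1979 and 970 with cyclic loess, 1254 higher with quantile normalization and 916 higher among genes with spread. Higher genes made up 32.3% of calls, 43.2% after quantile normalization and 49.1% without wild-type replicate 1. Members higher, 0 with the deposited values, became 2 (Lifr and Bcl3) with quantile normalization and 1 (Bcl3) with cyclic loess; the cause was not tested. Of 158 comparisons of a member's difference with an alternative, 126 kept their side of the threshold, 27 lost it and 5 gained it, and no member reversed its direction.

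The labels number the samples, with 1 and 2 in both genotypes, without saying that a number is shared. Same-numbered arrays deviated from their group means with correlations of -0.201 and 0.191 across genes. The deviations of the 2 wild-type arrays are mirror images of each other, so these correlations cannot decide whether the samples are paired. The main fit used no pairing because the labels give none. With the replicate block, which leaves 4 arrays, limma called 0 genes lower and 0 higher, hence 0 members and 0 targets in either direction, while 3827 genes had an unadjusted p under 0.05.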
